A study of Mus musculus with 12 samples.

Results

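The interaction between 2 treatments of Colon26 tumours was measured: how far each transcript in tumours given both lay from the level that the single treatments add up to. All 12 libraries of the series entered, as a 2 by 2 design with 3 libraries in each of 4 groups, and all 19921 gene symbols were considered, of which 5443 had enough counts to be tested. Colon26 is a mouse colon carcinoma line. All mice were wild-type BALB/c, received 200000 Colon26 cells under the skin of the right flank, and gave their tumours on day 10. The control group was labelled as control with no further agent. The minP1 group was labelled with minP1, a peptide from HMGN1 that stimulates immune cells (0.08 µg, intraperitoneal, day 9). The anti-PD-L1 group was labelled with the antibody clone 10F.9G2 against the checkpoint ligand PD-L1 (200 µg, intraperitoneal, days 4 and 8). The fourth group carried both names in its sample titles, while its treatment field gave the antibody after a plus sign without naming the peptide, so every value of the interaction rests on those titles. Each library came from the tumour of 1 mouse, and the labels describe total cells left after collagenase digestion and a Percoll step that removed tumour cells and dead cells. They do not say whether control mice received a vehicle or an isotype antibody. The 9 epithelial markers in the tables had 86 counts in all 12 libraries together.

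HMGN1 is a nucleosome-binding protein that also acts outside the cell as an alarmin, a danger signal sensed through TLR4 on dendritic cells and macrophages. PD-L1 on tumour and myeloid cells binds PD-1 on T cells and restrains them, and antibodies against PD-L1 release that restraint. T cells that are released make interferon gamma, which turns on antigen presentation genes in neighbouring cells, whereas TLR4 and nucleic acid sensors turn on type I interferon genes. The interaction was computed per gene as (combination minus anti-PD-L1) minus (minP1 minus control) on the log2 scale. A value of 0 means that the fold changes of the single treatments multiply to that of the combination, a positive value that the combination lay above this sum of log2 changes, and a negative value that it lay below. Levels are in CPM, counts scaled to a common library size with trimmed-mean factors. A value after ± is the standard error (SE) of a log2 value, and p-values are from edgeR's quasi-likelihood test with Benjamini-Hochberg adjustment over the 5443 genes.

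Depth bounded what could be seen. Totals ran from 133917 to 473273 counts per library and were lowest in the combination (133917 to 196109). The median SE of an interaction was 0.56, so the median 95% interval reached 1.16 log2 units to either side. Ribosomal RNA made up 3.04% ± 0.754 of control counts, 3.35% ± 0.654 with minP1, 2.50% ± 0.211 with anti-PD-L1 and 1.03% ± 0.171 with both (SD, n = 3 each). On the first principal component minP1 replicate 2 and anti-PD-L1 replicate 1 stood apart from the other libraries of their groups, both toward the combination (-0.206 against -22.4 and -24.5 for minP1, 17.3 against -5.03 and -8.39 for anti-PD-L1, and 30.9 to 59.8 in the combination). Fewer cells of a type and less RNA per cell cannot be told apart in such bulk libraries.

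No gene passed the interaction test at an adjusted p of 0.05 with edgeR (percent called 0 in each direction), and the smallest adjusted p was 0.0705. At an unadjusted p under 0.05, 230 genes lay above the sum of the single treatments (4.23%) and 370 below it (6.8%), 600 in all (11%), where 272 would be met if p-values were uniform. DESeq2 called 5 above and 15 below on the same genes, with 4432 adjusted p-values set to missing by its own filter, and limma voom called 0 (220 above and 312 below at an unadjusted p under 0.05). Without both libraries that stood apart on the first component, which was tried after seeing the data, edgeR called 10 above and 52 below. Without anti-PD-L1 replicate 3 the number below the sum at an unadjusted p under 0.05 was 245. On the linear CPM scale, where the single increments are added instead of multiplied, limma called 8 above and 0 below, and 65.1% of the genes at an unadjusted p under 0.05 lay above the sum, against 38.3% on the log2 scale. With every library thinned to 133917 counts 2798 genes were tested and 0 called, and all 416 of the 600 genes that could still be tested kept their direction. These 416 were picked from the same counts, so a kept direction was largely given by the choice. Because no adjusted p passed, the interaction values below are descriptions with their errors, and "rose" and "fell" are kept for the combination against control, where 896 genes were higher (16.5%) and 996 lower (18.3%). The comparisons with control share the control libraries with the interaction and are set beside it only as levels.

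The 600 genes were picked by this interaction, so a combination apart from the other groups is in large part given by the choice. The values below describe these genes and support nothing further. Both single changes were negative in 106 of the 230 genes above the sum and positive in 46. Among the 370 below it these numbers were 164 and 129. The 230 above the sum had a median change of -0.26 with minP1, -0.05 with anti-PD-L1 and 1.04 with both, against a median interaction of 1.32. Of these 230, 137 rose in the combination and 0 fell, and in 136 every combination library lay above the other 9 libraries, a pattern that 8.23% of all tested genes showed. The 370 below the sum had median changes of 0.03, -0.18 and -1.45, against a median interaction of -1.31. Of these, 248 fell in the combination and 3 rose, and in 236 every combination library lay below the other 9 (9.85% of all tested genes). Over all tested genes the median interaction was -0.09, with 44.5% of estimates above 0 and 55.5% below. The counts of list members below stand beside these shares, and beside 4.23% above and 6.8% below at an unadjusted p under 0.05.

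Macrophage genes were among the first on the upper side. Mrc1, the mannose receptor CD206 of tissue macrophages (chromosome 2, 14229392 to 14332057, plus strand, GRCm38), measured 272, 194 and 148 CPM in controls, 136, 121 and 75.7 with minP1, 181, 200.2 and 138 with anti-PD-L1 and 632, 376 and 349.8 with both. The minP1 libraries were below every control, the anti-PD-L1 libraries overlapped control, the sum of these changes put Mrc1 at 94.7 CPM, and all 3 combination libraries were above the other 9. In edgeR's test its interaction was 2.26 ± 0.43 (unadjusted p = 2.03e-05, adjusted p = 0.0705). Apoe, the lipid carrier made by many macrophages (chromosome 7, 19696109 to 19699188, minus strand, GRCm38), stood at 126, 241 and 164 CPM in controls, 158, 231 and 254 with minP1, 338, 204 and 220.4 with anti-PD-L1 and 1759, 609 and 1405 with both, where the sum gave 308. No combination library overlapped another group, although they spanned a wide range among themselves. The interaction of Apoe was 2.03 ± 0.47 (adjusted p = 0.151), and Apoe rose in the combination by 2.83 ± 0.33 against control (adjusted p = 2.42e-06).

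Ms4a7, a four-transmembrane protein of macrophages, ran at 94.5, 62.2 and 67.2 CPM in controls, 22.6, 47.6 and 69.2 with minP1, 90.7, 74.2 and 93 with anti-PD-L1 and 239, 203 and 237 with both. The combination libraries were tightly grouped above the rest, and the interaction was 2.06 ± 0.47 (adjusted p = 0.151), and 3.16 at equal depth. Cd14, the lipopolysaccharide co-receptor that works with TLR4, had an interaction of 1.39 ± 0.59 (adjusted p = 0.4), with 45.8, 69.5 and 38.1 CPM in controls, 33.9, 43.9 and 49.4 with minP1, 24.2, 22.2 and 58.5 with anti-PD-L1 and 102, 53.7 and 95.9 with both. Here the groups overlapped: the lowest combination library was under the highest control.

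The macrophage list was not uniform. Among 23 markers 14 were tested (a scarce gene can pass the filter on low counts through the group where it is high, so here and in the neutrophil and chemokine lists the counts describe the members tested and support nothing further). Of the 14, 8 had an interaction above 0 and 6 below, and their median was 0.51 against -0.09 over all genes. At an unadjusted p under 0.05, 5 lay above and 1 below. The median was 0.11 without combination replicate 1 and 0.30 without anti-PD-L1 replicate 3. The one below was Spp1, osteopontin, a secreted phosphoprotein of macrophages and tumour cells, at 7645, 6435 and 7690 CPM in controls, 7947, 5299 and 9356 with minP1, 4672, 8201 and 9247 with anti-PD-L1 and 3705, 4171 and 5044 with both (interaction -0.83 ± 0.37, adjusted p = 0.422). Spp1 was the most abundant marker, and the summed level of the whole list lay between 6923 and 9185 CPM in the combination, against 8589 to 9862 in controls, 7148 to 11580 with minP1 and 6896 to 11090 with anti-PD-L1. The defining receptors were thinly counted: Adgre1 (F4/80) had 22 control counts and 23 with both treatments, Csf1r 14 and 7, and Cd68 4 and 1, each over 3 libraries.

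**Figure D1:**
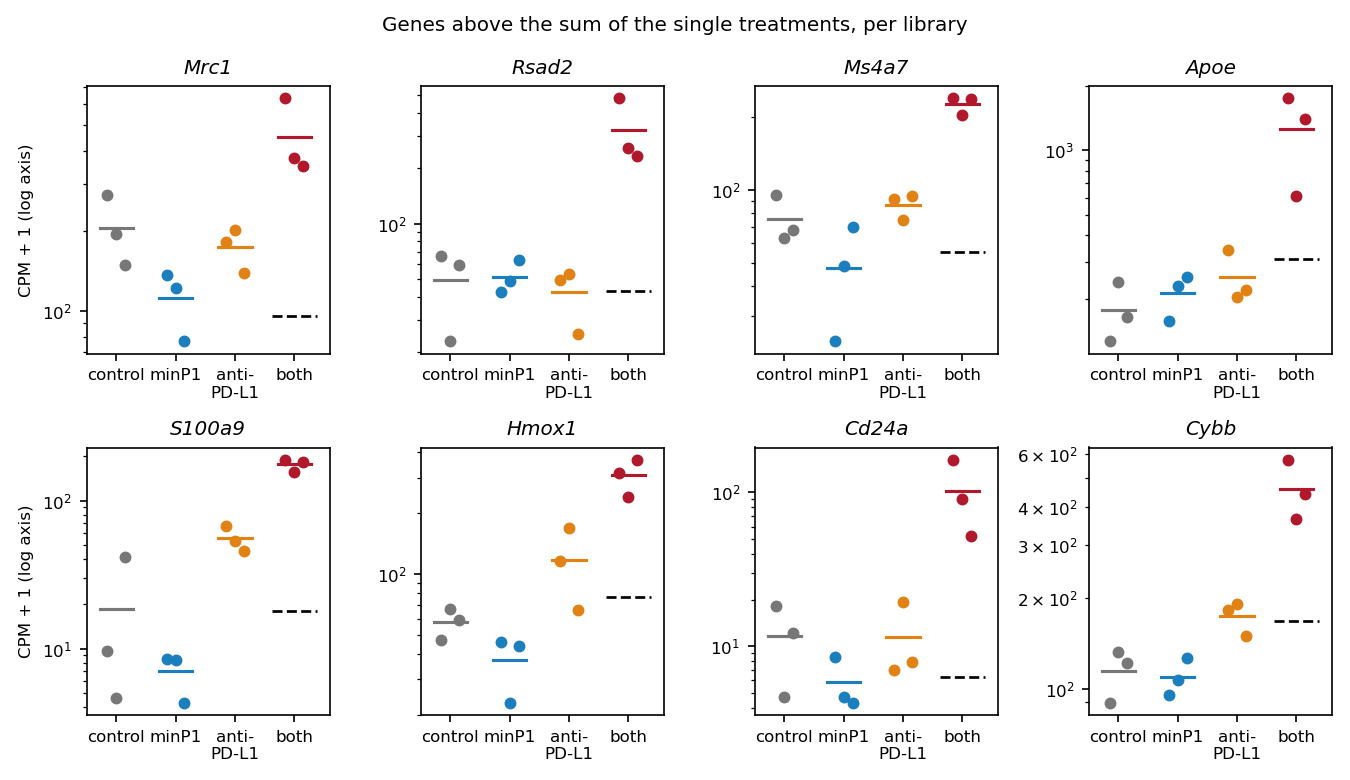
CPM plus 1 on a log axis for the first 8 genes above the sum, ordered by unadjusted p. Points are libraries, solid bars group means, and the dashed bar in the combined group ("both") marks the level given by the sum of the single log2 changes; every combination library of these 8 genes lies above its dashed bar.

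Most tested neutrophil and chemokine genes were also above the sum. S100a9, a calcium-binding protein of neutrophils and monocytes (chromosome 3, 90692632 to 90695721, minus strand, GRCm38), measured 8.59, 3.66 and 40.3 CPM in controls, 7.53, 7.32 and 3.29 with minP1, 66.5, 51.9 and 44.8 with anti-PD-L1 and 188, 155 and 181 with both. Its combination libraries exceeded all others, and the interaction was 3.36 ± 0.82 (adjusted p = 0.181). It was 1.80 without control replicate 3, the highest control. Its partner in the S100A8/A9 heterodimer, S100a8, had 2 to 3 counts per group and was not tested. Hdc, the histamine-producing decarboxylase, had 11.4, 7.31 and 13.4 CPM in controls, 15.1, 11 and 9.88 with minP1, 36.3, 25.9 and 17.2 with anti-PD-L1 and 76.8, 95.5 and 135 with both (interaction 1.93 ± 0.77, adjusted p = 0.369). Mmp9, gelatinase B, had 2.86, 7.31 and 0 CPM in controls, 11.3, 11 and 3.29 with minP1, 18.1, 11.1 and 6.89 with anti-PD-L1 and 230.5, 143 and 118 with both. It rose against control (adjusted p = 1.04e-06), but its interaction of 2.38 ± 1.35 had a wide error (adjusted p = 0.534) and was 1.46 without control replicate 2 and 0.0022 with all libraries thinned to equal depth. Of 18 neutrophil markers 7 were tested, and these 7 had an interaction above 0, with a median of 0.54 that reached 1.43 without minP1 replicate 1 and lay between 0.83 and 1.08 without any 1 of control replicates 1 and 2, minP1 replicates 2 and 3, anti-PD-L1 replicate 2 and combination replicate 2. Among them 2, S100a9 and Hdc, had an unadjusted p under 0.05. Against control 5 of the 7 rose in the combination and 1, the receptor gene Cxcr2, fell (16.5% and 18.3% of all tested genes). The list's summed level was 740 to 879.3 CPM in the combination and 293.5 to 456.8 in the other groups, while Ly6g, the lineage-defining marker, had 0 counts in the combination and 3 in all. By group means S100a9, Mmp9 and Hdc held 174.5, 164.1 and 102.6 of the list's 823.7 CPM in the combination. In controls they held 17.5, 3.39 and 10.7 of 410 CPM, so these genes carried most of the difference in the sum.

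The chemokine list had the highest median of the lists with at least 5 tested members. Of its 20 members 12 were tested, with a median interaction of 0.99 (0.83 to 1.16 over the alternatives), 8 above 0 and 4 below. At an unadjusted p under 0.05, 7 lay above and 0 below. Ccl4, a chemokine of the CC class, had 83, 47.5 and 47 CPM in controls, 37.6, 40.3 and 26.3 with minP1, 60.4, 77.8 and 82.7 with anti-PD-L1 and 162, 161 and 84.6 with both. The lowest combination library was just above the highest of the other 9, and the interaction was 1.60 ± 0.51 (adjusted p = 0.237). Ccl9, a ligand of CCR1, had 126, 91.4 and 80.6 CPM in controls, 97.8, 91.5 and 119 with minP1, 42.3, 77.8 and 117 with anti-PD-L1 and 324, 137 and 203 with both (interaction 1.33 ± 0.48, adjusted p = 0.322). Ccl2, the ligand of the monocyte receptor CCR2, had 114, 80.4 and 91.8 CPM in controls, 45.2, 54.9 and 69.2 with minP1, 54.4, 115 and 79.2 with anti-PD-L1 and 162, 83.5 and 135 with both. Here the minP1 libraries were low and the combination overlapped control (interaction 1.31 ± 0.48, adjusted p = 0.327).

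The neutrophil attractants that signal through CXCR2 followed. Cxcl1, named after its values were seen, had 143, 106 and 181 CPM in controls, 109, 205 and 161 with minP1, 326, 263 and 427 with anti-PD-L1 and 1007, 483 and 609 with both. The combination overlapped no other group, and anti-PD-L1 alone was above control as well (interaction 0.90 ± 0.43, adjusted p = 0.446, and 0.56 without combination replicate 1). Cxcl5, also named afterwards, had 0, 7.31 and 26.9 CPM in controls, 11.3, 7.32 and 6.59 with minP1, 30.2, 29.7 and 10.3 with anti-PD-L1 and 162, 47.7 and 102 with both (interaction 2.72 ± 1.07, adjusted p = 0.366). Cxcl5 rested on few counts, and its interaction was 0.91 without control replicate 3 and 1.62 with limma voom. The receptor gene Cxcr2 fell in the combination against control (-1.16 ± 0.26, adjusted p = 0.0017), with an interaction of 0.41 ± 0.37 (adjusted p = 0.742). Neutrophil and macrophage markers, with the summed levels given above, stood beside these chemokines in the same libraries, and their part in the chemokine values was not tested.

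Lysosomal genes lay moderately above the sum. Of 26 tested members 19 had an interaction above 0, the median was 0.23 (0.13 with no filter, 0.39 without minP1 replicate 3 and 0.47 at equal depth), and 4 lay above and 1 below at an unadjusted p under 0.05. Against control 12 of the 26 rose and 1 fell (16.5% and 18.3% of all tested genes). Ctsl, the cysteine protease cathepsin L, had 1700, 1104 and 1241 CPM in controls, 1569, 1644 and 1403 with minP1, 2146, 2084 and 2125 with anti-PD-L1 and 5771, 4816 and 3701 with both, where the sum gave 2418. The combination libraries were all higher than the others (interaction 0.98 ± 0.32, adjusted p = 0.255). Lgmn, the asparaginyl endopeptidase that processes other cathepsins, had 484, 464 and 300.1 CPM in controls, 275, 436 and 445 with minP1, 519.8, 564 and 427 with anti-PD-L1 and 1238, 913 and 1095 with both (interaction 1.21 ± 0.35, adjusted p = 0.234). Atp6v1b2, a subunit of the proton pump that acidifies lysosomes, had 132, 117 and 108 CPM in controls, 117, 194 and 122 with minP1, 248, 163 and 172 with anti-PD-L1 and 657, 394 and 446 with both (interaction 1.09 ± 0.40, adjusted p = 0.328). The exception below the sum was Cd63, a tetraspanin of late endosomes, at -2.03 ± 0.76 (adjusted p = 0.337), named after its values were seen, which fell in the combination (-4.13 ± 0.57 against control, adjusted p = 1.38e-05). The interaction of Cd63 was -3.78 without combination replicate 3 and -1.09 at equal depth, and on the linear scale it lay 13.2 CPM above the sum. The part of the macrophage markers in the lysosomal values was not tested.

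Some oxidative, cytokine and arginine genes also lay above the sum, although most of their lists were divided. Members above 0 were 2 of 4 tested for phagocyte oxidase (median -0.19) and 4 of 8 for metallothionein and iron handling (median -0.05). They were 7 of 14 for TNF, IL-1 and NF-kB (median 0.07) and 6 of 10 for arginine and polyamine genes (median 0.38). Hmox1, heme oxygenase 1, had 45.8, 65.8 and 58.2 CPM in controls, 45.2, 22 and 42.8 with minP1, 115, 167 and 65.4 with anti-PD-L1 and 316, 239 and 367 with both (interaction 2.02 ± 0.50, adjusted p = 0.181). The order minP1, control, anti-PD-L1, combination held for its group means. Cybb, the catalytic subunit of the phagocyte NADPH oxidase (chromosome X, 9435252 to 9487771, minus strand, GRCm38), had 88.7, 132 and 121 CPM in controls, 94.1, 106 and 125 with minP1, 181, 189 and 148 with anti-PD-L1 and 572, 364 and 440.1 with both (interaction 1.46 ± 0.38, adjusted p = 0.2). Il1rn, the IL-1 receptor antagonist, had 20, 18.3 and 22.4 CPM in controls, 15.1, 18.3 and 16.5 with minP1, 24.2, 18.5 and 17.2 with anti-PD-L1 and 68.3, 89.5 and 50.8 with both. It was level in the first 3 groups and higher in the fourth (interaction 2.10 ± 0.70, adjusted p = 0.255). Arg2, the mitochondrial arginase, had 213, 89.5 and 107 CPM in the combination against 60.4, 18.5 and 31 in anti-PD-L1, 3.76, 7.32 and 9.88 in minP1 and 20, 0 and 11.2 in control (interaction 2.55 ± 0.98, adjusted p = 0.351). Azin1, which shields ornithine decarboxylase from its inhibitor, had an interaction of 0.83 ± 0.33 (adjusted p = 0.37).

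Among the type I interferon genes Rsad2 stood out. Rsad2 (viperin), a type I interferon gene with antiviral activity (chromosome 12, 26442746 to 26456452, minus strand, GRCm38), measured 65.8, 21.9 and 58.2 CPM in controls, 41.4, 47.6 and 62.6 with minP1, 48.4, 51.9 and 24.1 with anti-PD-L1 and 478, 257 and 231 with both. Neither single treatment moved it out of the control range, the sum gave 42.1 CPM, and every combination library was far above the other 9. In edgeR's test its interaction was 2.93 ± 0.57 (unadjusted p = 2.59e-05, adjusted p = 0.0705). Bst2 (tetherin), which holds budding virus at the cell surface, had 661, 654 and 732 CPM in controls, 692, 739.7 and 823 with minP1, 701, 905 and 940.2 with anti-PD-L1 and 1989, 1808 and 1253 with both (interaction 0.84 ± 0.32, adjusted p = 0.337). By member the type I list had no common direction, with 7 of 12 tested members above and 5 below 0. The median was 0.21 (-0.14 without control replicate 3, -0.01 without minP1 replicate 1 or combination replicate 3, 0.02 without anti-PD-L1 replicate 3 and 0.58 at equal depth). Rsad2 and Bst2 were the 2 with an unadjusted p under 0.05. On the linear scale 9 members lay above the sum and 3 below. The list's summed level was 2511 to 3389 CPM in the combination, 1377 to 1738 in controls, 1501 to 1959 with minP1 and 1487 to 1880 with anti-PD-L1. The single log2 changes of this level added to 1842 CPM, and the interaction of the summed counts was 0.69. By group means Bst2 and Rsad2 held 1683 and 322 of 3005 CPM in the combination, and 683 and 48.7 of 1529 in controls. Zbp1, a nucleic acid sensor of the same list, was at -0.86 ± 0.56 (adjusted p = 0.607), from -0.47 without control replicate 1 to -1.34 without control replicate 3.

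Most tested interferon gamma genes had an estimate below the sum. By the median their level in the combination was about that with anti-PD-L1 alone. The 16 tested members had a median change of 0.59 with minP1, 0.70 with anti-PD-L1 and 0.70 with both, where the single changes summed to a median of 1.24. Of the 16, 14 had an interaction below 0 and 2 above, where 55.5% of all tested genes lay below, and the median was -0.54. At an unadjusted p under 0.05, 2 lay below and 0 above, against 6.8% and 4.23% of all tested genes. Irf1, the transcription factor that carries the interferon gamma signal (chromosome 11, 53770014 to 53778374, plus strand, GRCm38), measured 80.1, 95.1 and 253 CPM in controls, 267, 278 and 336 with minP1, 308, 397 and 358 with anti-PD-L1 and 273, 322 and 463 with both, where the sum gave 707. The anti-PD-L1 and combination libraries overlapped, and the interaction was -1.004 ± 0.45 (adjusted p = 0.43). Iigp1, an immunity-related GTPase, had 8.59, 62.2 and 164 CPM in controls, 102, 87.9 and 201 with minP1, 72.5, 145 and 117 with anti-PD-L1 and 34.1, 59.7 and 56.4 with both (interaction -1.83 ± 0.78, adjusted p = 0.405). Gbp2, a guanylate-binding protein, had 17.2, 25.6 and 129.9 CPM in controls, 102, 62.2 and 95.5 with minP1, 48.4, 189 and 86.1 with anti-PD-L1 and 17.1, 71.6 and 113 with both (interaction -1.13 ± 0.80, adjusted p = 0.643). In all 3 genes control replicate 3 was the highest control. Without it the interaction was -1.75 for Irf1, -3.10 for Iigp1 and -2.66 for Gbp2 (which was -0.46 without anti-PD-L1 replicate 2), and the list's median was -1.50. That median was -0.91 without combination replicate 3, -0.27 without control replicate 1 and -0.26 without minP1 replicate 3.

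MHC class I genes lay near or below the sum. H2-K1, a heavy chain, measured 1500, 1397 and 2311 CPM in controls, 3364, 3512 and 2648 with minP1, 5011, 3600 and 3389 with anti-PD-L1 and 7691, 6738 and 5151 with both. The combination overlapped no other group, and the interaction of -0.16 ± 0.35 was near 0 (adjusted p = 0.906), from -0.42 without control replicate 3 to 0.06 without anti-PD-L1 replicate 1. B2m, the light chain, had 962, 1141 and 1888 CPM in controls, 2231, 2007 and 2282 with minP1, 3784, 2410 and 2648 with anti-PD-L1 and 5617, 4094 and 3842 with both (interaction -0.09 ± 0.36, adjusted p = 0.953), from -0.43 to 0.16 without the same libraries. Both genes rose in the combination against control, and both were named after their values were seen.

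Genes of peptide processing and loading were mostly further below. Psmb10, a catalytic subunit of the immunoproteasome, had 132, 190.1 and 255 CPM in controls, 259.6, 381 and 326 with minP1, 242, 374 and 238 with anti-PD-L1 and 171, 185 and 231 with both. The combination lay within the control range (interaction -1.27 ± 0.40, adjusted p = 0.237, and -0.83 at equal depth). Tap2, one subunit of the peptide transporter into the endoplasmic reticulum, had 117, 267 and 273 CPM in controls, 275, 297 and 438 with minP1, 229.7, 304 and 299.6 with anti-PD-L1 and 137, 107 and 248 with both (interaction -1.37 ± 0.46, adjusted p = 0.255). Pdia3, the disulfide isomerase of the loading complex, had 761, 819 and 1001 CPM in controls, 704, 634 and 1103 with minP1, 550, 738 and 630.2 with anti-PD-L1 and 205, 251 and 406 with both, below all other libraries (interaction -1.06 ± 0.38, adjusted p = 0.302). In the whole list 18 of 20 tested members had an interaction below 0, the median was -0.60, and 5 lay below and 0 above at an unadjusted p under 0.05. The median ran from -1.06 without control replicate 3 to -0.28 without control replicate 1.

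The scale matters for these 2 lists. The summed CPM of the MHC class I list was 8335 in controls, 12840 with minP1, 14960 with anti-PD-L1 and 19550 with both. Adding the single increments in CPM gave 19470, while adding them in log2 gave 23740, so the list met the linear sum and lay under the logarithmic one. H2-K1 and B2m turned to 1088 and 727.2 CPM above the sum on the linear scale, where 14 of the 20 members were below it. The interferon gamma list summed to 2391 CPM in the combination, under both its linear sum of 2728 and its logarithmic sum of 3719, and the same number of its members, 14 of 16, lay below 0 on the linear scale. For the chemokine list the combination held 2362 CPM against a linear sum of 1265 and a logarithmic sum of 1189.

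**Figure D2:**
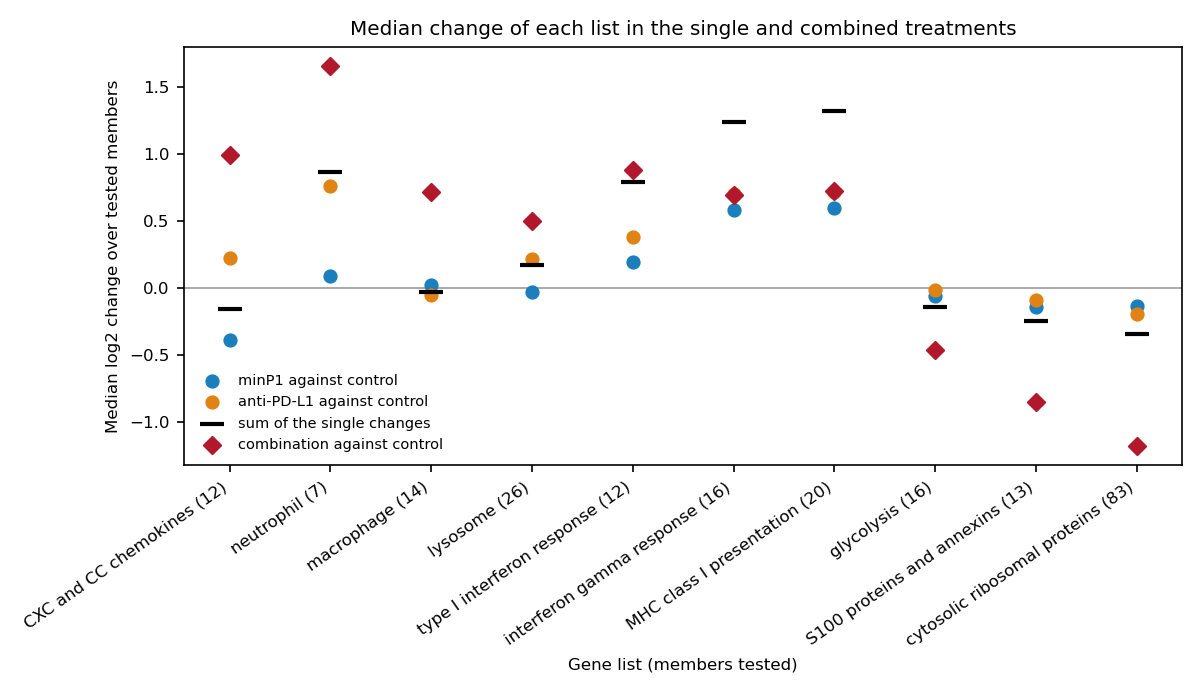
Median log2 change against control over the tested members of 10 lists for minP1, anti-PD-L1 and the combination, with a black bar at the median of the members' summed single changes. The combination lies above the bar for chemokine, neutrophil, macrophage, lysosome and type I interferon genes, and below it for interferon gamma, MHC class I, glycolysis, S100 and annexin, and ribosomal protein genes; for interferon gamma and MHC class I the combination point covers that of anti-PD-L1.

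Promoter sequences of genes from both sides are shown because the same short element occurs in both. They are RefSeq sequences of GRCm38.p6, 5′ to 3′ on the gene's strand and ending 1 base before its start, with the element in capitals. GAAANNGAAA is the core of the interferon-stimulated response element, which factors of the IRF and ISGF3 type bind, and reads TTTCNNTTTC on the opposite strand. TTCNNNGAA is the core of the gamma-activated site and is its own reverse complement. The windows are Rsad2 (chr12:26456453-26456592, minus strand), Cybb (chrX:9469325-9469544, minus strand, before a RefSeq start inside the longer annotated gene), Gbp2 (chr3:142620523-142620662, plus strand, whose last bases and marked element lie inside the gene as GENCODE annotates it, from 142620602), each with GAAANNGAAA marked, and Irf1 (chr11:53769874-53770013, plus strand), with TTCNNNGAA marked.
Rsad2: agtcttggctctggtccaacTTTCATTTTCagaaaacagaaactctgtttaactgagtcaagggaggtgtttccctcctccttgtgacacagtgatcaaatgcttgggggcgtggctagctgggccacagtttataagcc
Cybb: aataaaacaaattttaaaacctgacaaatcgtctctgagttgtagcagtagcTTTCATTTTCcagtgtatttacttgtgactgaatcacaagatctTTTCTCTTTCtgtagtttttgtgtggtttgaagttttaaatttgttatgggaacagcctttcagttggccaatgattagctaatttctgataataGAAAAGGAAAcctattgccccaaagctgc
Gbp2: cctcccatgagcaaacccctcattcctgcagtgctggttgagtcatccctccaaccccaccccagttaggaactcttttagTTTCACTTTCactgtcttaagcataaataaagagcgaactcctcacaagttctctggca
Irf1: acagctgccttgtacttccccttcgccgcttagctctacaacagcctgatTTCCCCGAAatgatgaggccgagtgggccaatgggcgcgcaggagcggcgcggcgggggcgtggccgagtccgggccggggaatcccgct
Rsad2 and Cybb, above the sum, and Gbp2, below it, all held GAAANNGAAA on 1 strand or the other. Searched on both strands over 300 bases, the element was in 3.44% of 32851 RefSeq promoter windows and TTCNNNGAA in 8.3%. In the type I interferon list 6 of 9 genes with an entry held GAAANNGAAA and 2 held TTCNNNGAA. In the interferon gamma list 8 of 13 held GAAANNGAAA and 5 held TTCNNNGAA. These are 66.7% and 61.5% for GAAANNGAAA, and the difference between the lists was not tested. A match describes letters in a window and not a bound site.

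Ribosomal RNA, ribosomal protein genes and their copies made up 7 of the first 8 genes below the sum, the other being Ccnd1. Rn18s, the 18S ribosomal RNA, measured 10600, 9726 and 16970 CPM in controls, 15800, 10610 and 15750 with minP1, 9169, 10650 and 9812 with anti-PD-L1 and 3338, 3790 and 4046 with both, where the sum gave 11160. The combination libraries were well below all others (interaction -1.58 ± 0.35, adjusted p = 0.151). Rn45s, the 45S precursor, was at -1.40 ± 0.32 and Rn28s1 at -1.32 ± 0.33 (adjusted p = 0.151 and 0.181). The libraries were made from polyadenylated RNA, in which ribosomal RNA is a residue, and their relation to the ribosomal protein genes was not tested.

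Rps28, a small-subunit protein (chromosome 17, 33819027 to 33824562, minus strand, GRCm38), had 1151, 1346 and 1424 CPM in controls, 993, 798 and 1186 with minP1, 393, 730.3 and 847 with anti-PD-L1 and 154, 137 and 186 with both. Both single treatments lay lower than control on average and the combination lower again, past the 501 CPM of the sum (interaction -1.65 ± 0.38, adjusted p = 0.151). Rpl37a, a large-subunit protein, had 3480, 3774 and 3451 CPM in controls, 2788, 2820 and 4041 with minP1, 1330, 2647 and 2473 with anti-PD-L1 and 512, 788 and 767 with both (interaction -1.49 ± 0.37, adjusted p = 0.181). Rps13 had 1955, 1251 and 1480 CPM in controls, 1419, 1402 and 1834 with minP1, 1046, 1524 and 2032 with anti-PD-L1 and 196, 531 and 717 with both, so that the first 3 groups overlapped and the fourth lay below them (interaction -1.64 ± 0.44, adjusted p = 0.208). Rpl5, which carries the 5S ribosomal RNA into the large subunit and was named after its values were seen, had 982, 1192 and 1283 CPM in controls, 959.6, 256 and 922 with minP1, 151, 493 and 582 with anti-PD-L1 and 51.2, 35.8 and 67.7 with both. Its interaction of -2.31 ± 0.64 was the lowest of the list (adjusted p = 0.221). On the linear scale Rpl5 turned to 82.5 CPM above the sum, because the single changes add to a level under 0 there.

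Of 83 tested ribosomal protein genes 68 had an interaction below 0 and 15 above, with a median of -0.58 that ran from -0.70 to -0.49 over the alternatives. At an unadjusted p under 0.05, 34 lay below and 0 above. On the linear scale 53 lay below the sum and 30 above. In 42 of the 83 every combination library was below the other 9, as in 9.85% of all tested genes. Against control 51 fell in the combination and 11 rose, where 18.3% of all tested genes fell and 16.5% rose. The 11 included several of the most abundant: Rplp0, the stalk protein, had 5409, 3141 and 3110 CPM in controls, 3921, 5888 and 3395 with minP1, 10960, 5324 and 7101 with anti-PD-L1 and 14810, 12710 and 8548 with both (interaction 0.45 ± 0.42, adjusted p = 0.752), from 0.14 without control replicate 1 to 0.81 without anti-PD-L1 replicate 1. Rpl32 had 6448, 4695 and 4936 CPM in controls, 5697, 9612 and 5750 with minP1, 11510, 7374 and 9440 with anti-PD-L1 and 13930, 16700 and 10990 with both (interaction 0.17 ± 0.36, adjusted p = 0.908), from 0.02 without anti-PD-L1 replicate 2 to 0.48 without minP1 replicate 2. Both were named after their values were seen. The family's summed counts took 15.02% to 18.6% of counts in the combination, 17.0% to 19.5% in control, and the interaction of the sum was -0.16. Ribosomal protein genes have many processed copies in the genome, and how reads that match several copies were counted is not given in the sources used here. Of 2 such copies among the leading genes, Rps15a-ps5 was at -1.99 ± 0.45 (adjusted p = 0.151) and Rpl14-ps1 at -1.55 ± 0.39 (adjusted p = 0.181).

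**Figure D3:**
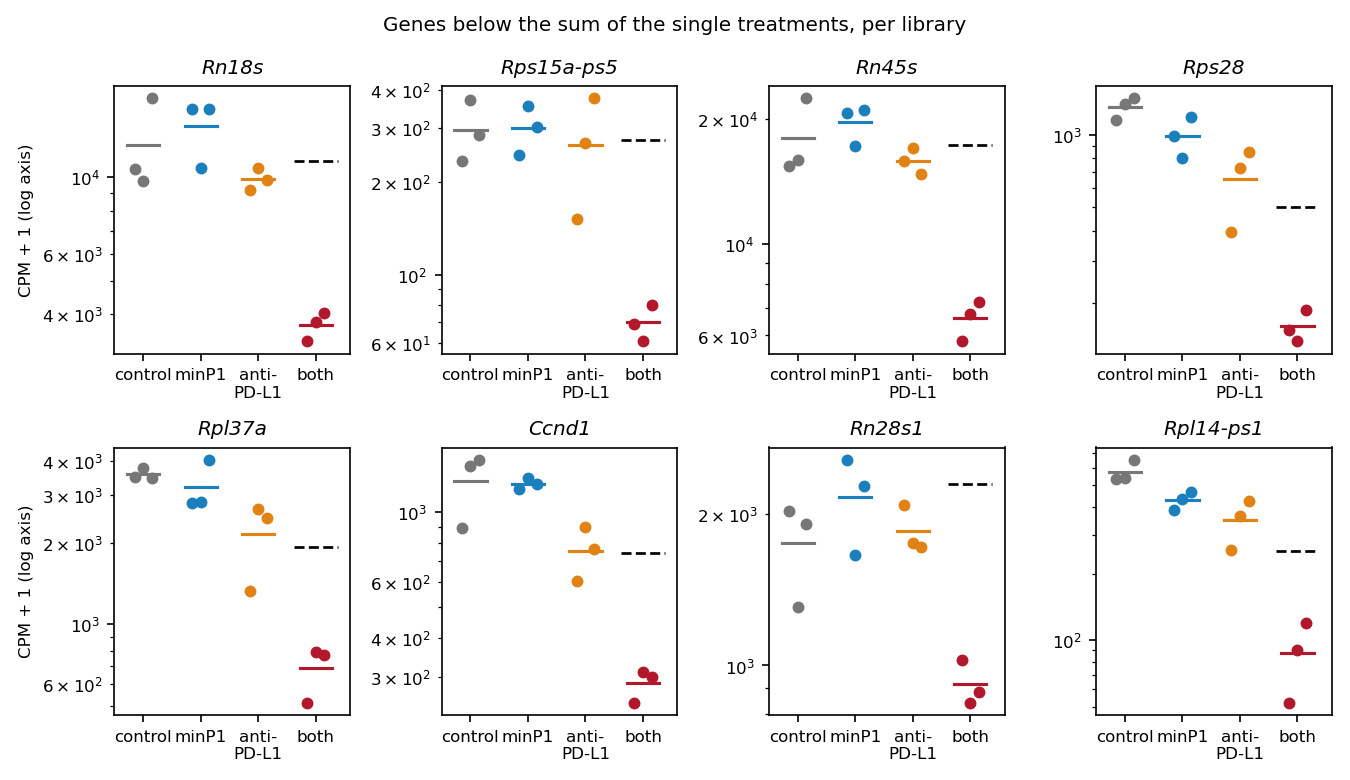
CPM plus 1 on a log axis for the first 8 genes below the sum, ordered by unadjusted p. Points are libraries, solid bars group means and the dashed bar the level given by the sum of the single log2 changes; every combination library of these 8 genes lies under its dashed bar.

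**Figure D4:**
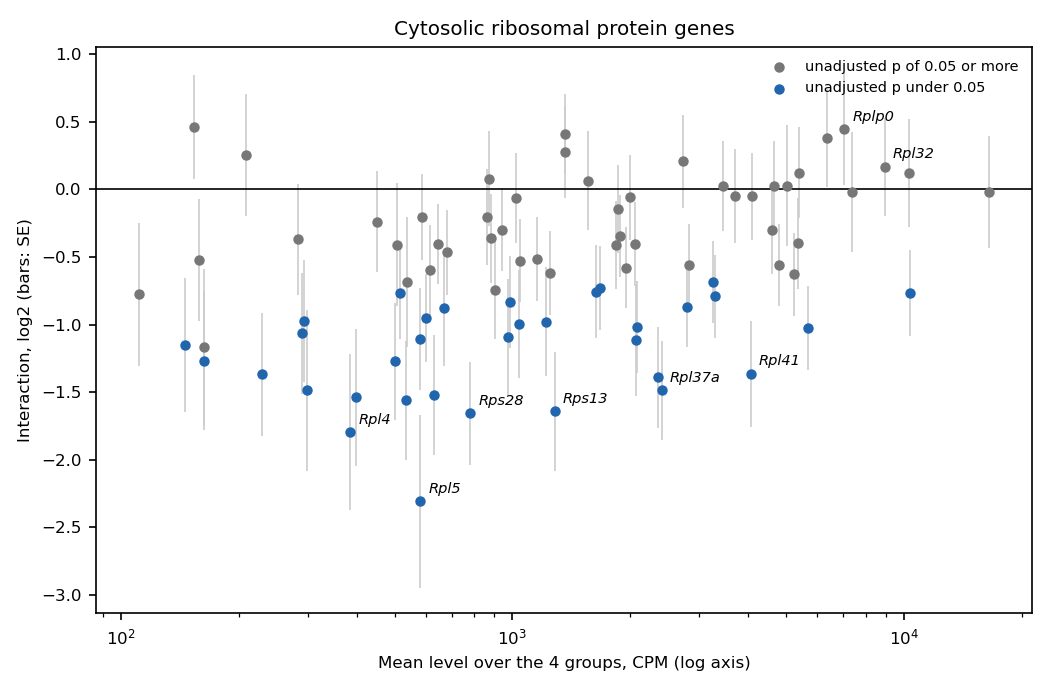
Interaction (log2, bars are SE) of the 83 tested ribosomal protein genes against their mean level over the 4 groups (CPM, log axis). Blue points have an unadjusted p under 0.05, all 34 of them below 0; Rplp0 and Rpl32, among the most abundant, lie above 0.

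By member, mitochondrial and respiratory genes mostly ran in the same direction, while their summed counts had an interaction like that of all genes. MT-Atp6, a mitochondrially encoded subunit of ATP synthase, had 315, 369 and 376 CPM in controls, 324, 183 and 309.6 with minP1, 145, 208 and 286 with anti-PD-L1 and 51.2, 53.7 and 56.4 with both (interaction -1.62 ± 0.44, adjusted p = 0.208). MT-Co2, a subunit of cytochrome oxidase, had 936, 1134 and 1147 CPM in controls, 820.3, 1190 and 682 with minP1, 961, 989.9 and 1415 with anti-PD-L1 and 333, 442 and 384 with both (interaction -1.28 ± 0.35, adjusted p = 0.209). Both genes had combination libraries below the other 9. MT-Co3, a subunit of the same enzyme, rose in the combination by 2.04 ± 0.37 (adjusted p = 0.000251), with an interaction of 0.06 ± 0.51 that ran from -0.22 without minP1 replicate 3 to 0.82 without minP1 replicate 2. It was named after its values were seen. Of 13 tested mitochondrially encoded genes 11 were below 0, 5 of them at an unadjusted p under 0.05. Their median of -0.45 was -0.24 without combination replicate 3, -0.71 without control replicate 3 and -0.74 without control replicate 2. Of 67 nuclear genes of the respiratory chain 46 were below 0 (median -0.43, and -0.28 at equal depth), 9 of them at that threshold and 0 above. Atp5h, a stalk subunit of ATP synthase, was the lowest at -2.33 ± 0.66 (adjusted p = 0.221). The interaction of the summed counts was -0.04 for the mitochondrially encoded and -0.05 for the nuclear list, against -0.05 for all tested genes. On the linear scale 8 mitochondrially encoded genes lay below the sum and 5 above. For the nuclear genes these numbers were 40 and 27.

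Glycolytic genes mostly lay below the sum. Ldha, lactate dehydrogenase A, had 584, 512 and 793 CPM in controls, 862, 267 and 665 with minP1, 320.3, 534 and 551 with anti-PD-L1 and 137, 113 and 192 with both, where the sum gave 444. The single-treatment libraries scattered around control and the combination lay under all of them (interaction -1.59 ± 0.48, adjusted p = 0.235). Pgk1, phosphoglycerate kinase, had 1236, 808 and 1474 CPM in controls, 1370, 872 and 1212 with minP1, 1015, 1301 and 1167 with anti-PD-L1 and 427, 501 and 666 with both (interaction -1.09 ± 0.36, adjusted p = 0.255). Pkm, pyruvate kinase, was at -1.10 ± 0.43 (adjusted p = 0.369). Of 16 tested members 13 had an interaction below 0, the median was -0.53 (-0.34 without combination replicate 1, -0.84 without control replicate 3), and 4 lay below and 0 above at an unadjusted p under 0.05. Against control 7 fell and 2 rose (18.3% and 16.5% of all tested genes). Hypoxia genes outside glycolysis had 10 of 12 below 0 (median -0.46, from -0.71 without control replicate 3 to -0.26 without control replicate 1, and -0.21 at equal depth) and 0 at an unadjusted p under 0.05 in either direction.

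S100 proteins other than S100a9, and annexins, were mostly below the sum. Anxa5, a phosphatidylserine-binding annexin (chromosome 3, 36448923 to 36475894, minus strand, GRCm38), had 429, 424 and 497 CPM in controls, 478, 183 and 537 with minP1, 151, 297 and 241 with anti-PD-L1 and 68.3, 41.8 and 50.8 with both (interaction -1.97 ± 0.51, adjusted p = 0.2). S100a4, a protein of motile mesenchymal and myeloid cells, had 4130, 4432 and 3402 CPM in controls, 3315, 3973 and 3560 with minP1, 2279, 2777 and 3296 with anti-PD-L1 and 1041, 1373 and 1518 with both (interaction -0.94 ± 0.32, adjusted p = 0.26). S100a6, named after its values were seen, had 15990, 12060 and 10860 CPM in controls, 11560, 12080 and 12600 with minP1, 13180, 11980 and 12100 with anti-PD-L1 and 5984, 8349 and 7177 with both. It was flat over the first 3 groups and lower in the fourth (interaction -0.69 ± 0.32, adjusted p = 0.431). Of 13 tested members 11 were below 0, the median was -0.70, the lowest of the lists with at least 5 tested members, and 4 lay below and 1, S100a9, above at an unadjusted p under 0.05. S100a9 thus stood apart from S100a4 and S100a6 within the S100 family.

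Signalling genes with fast turnover were next. Tnfaip3 (A20), a brake on NF-kB, had 140.2, 102 and 206 CPM in controls, 222, 143 and 279.9 with minP1, 302, 322 and 320.3 with anti-PD-L1 and 59.8, 77.6 and 237 with both. Anti-PD-L1 libraries were the highest and the combination spread from below to above the control range (interaction -1.78 ± 0.51, adjusted p = 0.221, and -2.67 without combination replicate 3). Nfkb2, the p100 precursor, was at -2.94 ± 0.98 with a combination library at 0 counts (adjusted p = 0.255), and at -1.88 with a prior count of 2. Dusp1, a phosphatase that ends MAP kinase signalling, had 518, 399 and 482 CPM in controls, 591, 498 and 586 with minP1, 937, 871 and 644 with anti-PD-L1 and 435, 561 and 463 with both. Dusp1 was high with anti-PD-L1 alone and overlapped control with both (interaction -0.998 ± 0.32, adjusted p = 0.241). Klf2, a transcription factor of quiescence, was at -1.12 ± 0.38 (adjusted p = 0.268), and at -0.73 without both libraries that stood apart. Fosl1, an AP-1 subunit, was at -1.31 ± 0.53 (adjusted p = 0.383), and at -0.29 at equal depth. Of 20 tested immediate early genes 16 were below 0 (median -0.29, and -0.52 without control replicate 1), 5 of them at an unadjusted p under 0.05 and 0 above. The TNF, IL-1 and NF-kB list had no common direction, with 7 of 14 above and 7 below 0 and a median of 0.07 that changed sign without combination replicate 1 (-0.11), minP1 replicate 2 (-0.05) or control replicate 3 (-0.02).

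The metallothioneins Mt1 and Mt2, which bind zinc and copper, lay below the sum of log2 changes. Mt1 had 2270, 2146 and 3930 CPM in controls, 6837, 5181 and 5401 with minP1, 9175, 9020 and 10960 with anti-PD-L1 and 12660, 9859 and 12860 with both, where the sum gave 20260 (interaction -0.78 ± 0.35, adjusted p = 0.422). Every treated library was above the controls, and the combination overlapped anti-PD-L1. Added in CPM, the single increments gave 12740 for Mt1 and 2760 for Mt2, against combination means of 11790 and 1197. Mt2 had 492, 709 and 1747 CPM in controls, 1942, 967 and 1923 with minP1, 913, 2202 and 3282 with anti-PD-L1 and 1024, 740 and 1828 with both, so that all groups overlapped (interaction -1.54 ± 0.59, adjusted p = 0.344). Among growth genes Ccnd1 (cyclin D1) had 890.1, 1397 and 1467 CPM in controls, 1185, 1282 and 1225 with minP1, 604, 897 and 761 with anti-PD-L1 and 248, 310.3 and 299 with both (interaction -1.37 ± 0.34, adjusted p = 0.181), and Top2a, the topoisomerase of dividing cells, was at -1.03 ± 0.38 (adjusted p = 0.335). The cell cycle list as a whole had 15 of 24 below 0 and a median of -0.22, which ran from -0.40 without combination replicate 2 and -0.36 without control replicate 1 to -0.15 without minP1 replicate 1, -0.14 without anti-PD-L1 replicate 3, -0.13 without combination replicate 3 and -0.09 without control replicate 3, the last about that of all genes. On the linear scale 12 of its members lay above the sum and 12 below. Copb2, a coatomer subunit of Golgi transport, had the lowest interaction of the named genes at -3.40 ± 0.96 (adjusted p = 0.221). It had 114, 91.4 and 87.3 CPM in controls, 75.26, 36.62 and 72.45 with minP1, 30.22, 40.78 and 55.1 with anti-PD-L1 and 0, 0 and 5.64 with both. The sum of log2 changes gave 19.8 CPM and the linear sum 5.73. The interaction of Copb2 was -5.88 without combination replicate 3 and -1.77 with a prior count of 2. Copa of the same coat was at 1.06 ± 0.46 (adjusted p = 0.412).

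Some of the leading genes belonged to none of the families above. Cd24a, a surface glycoprotein of immature blood cells, had 17.2, 3.66 and 11.2 CPM in controls, 7.53, 3.66 and 3.29 with minP1, 6.04, 18.5 and 6.89 with anti-PD-L1 and 162, 89.5 and 50.8 with both, the highest interaction of the named genes at 4.24 ± 1.06 (adjusted p = 0.181). Cd24a rested on few counts (6, 1 and 5 in controls, 19, 15 and 9 with both) and could pass the filter on low counts through the combination. Its interaction was 3.08 with a prior count of 2. Genes of the Golgi were among these leading genes: Man2a1, a mannosidase, at 1.59 ± 0.43, and Cog3, a tether, at 2.77 ± 0.75 (adjusted p = 0.208 for each). Clcn3, a chloride and proton exchanger of endosomes, lay above the sum at 1.86 ± 0.50 (adjusted p = 0.208) although the combination at 85.4, 102 and 90.3 CPM was close to control at 80.1, 87.8 and 53.7. Its single treatments were lower, at 48.9, 29.3 and 32.9 with minP1 and 60.4, 37.1 and 55.1 with anti-PD-L1. Map1b, a microtubule-binding protein, and Rala, a small GTPase of exocytosis, were below the sum at -2.90 ± 0.73 and -2.27 ± 0.58 (adjusted p = 0.181 and 0.183).

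Lymphocyte genes were too thinly counted for an interaction. The pan-T list had 413 counts over 12 libraries, and 1 of its 15 genes, Thy1, was tested. Its summed level was 54.9 to 87.3 CPM in controls, 102.1 to 164.8 with minP1, 144.6 to 229.7 with anti-PD-L1 and 179 to 307.3 with both, an interaction of the sum of -0.35. Cd3e had 1, 2, 4 and 6 counts in these groups and Cd8a 4, 2, 0 and 1. Ctla4, the checkpoint receptor of activated and regulatory T cells, named after its values were seen, was among the few measured, at 2.86, 7.31 and 29.1 CPM in controls, 26.3, 54.9 and 9.88 with minP1, 60.4, 48.2 and 34.4 with anti-PD-L1 and 162, 102 and 164 with both. It rose in the combination by 3.24 ± 0.53 (adjusted p = 7.5e-05) with an interaction of 0.59 ± 0.81 that was -0.90 without control replicate 3 (adjusted p = 0.847). The mast cell, epithelial and skeletal muscle lists had 0 tested genes, and the cytotoxic list had 2 (Gzma and Gzmc, both below 0).

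Hmgn1, the gene from which the peptide derives, had 678, 519 and 486 CPM in controls, 546, 637 and 451 with minP1, 955, 601 and 619.9 with anti-PD-L1 and 973, 1086 and 677 with both. The combination overlapped control and anti-PD-L1 and lay above minP1, and its interaction was 0.38 ± 0.35 (adjusted p = 0.749), from 0.23 without control replicate 1 to 0.65 without anti-PD-L1 replicate 1. Of the HMG chromatin protein list 7 of 9 were below 0 (median -0.28, and -0.19 without minP1 replicate 2), with Hmgb2 at -0.77 ± 0.33 (adjusted p = 0.408). Grouping all tested genes by the letters that open their symbol gave 52 families of 10 or more. The lowest median among them was that of Rpl (-0.74, 54 genes) and the highest that of Il (0.53, 12 genes, 10 of them above 0). Over all tested genes 44.5% were above 0. Scarce Il genes can pass the filter on low counts through the group where they are high, so their count describes the members tested only. Splicing factors had 22 of 43 above 0 and a median of 0.01, with a sign that turned in several alternatives (-0.11 to 0.07). Translation factors had a median of -0.10 (-0.21 to -0.01) and the constitutive proteasome one of -0.16 (-0.35 without control replicate 1 to 0.04 at equal depth).

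**Figure D5:**
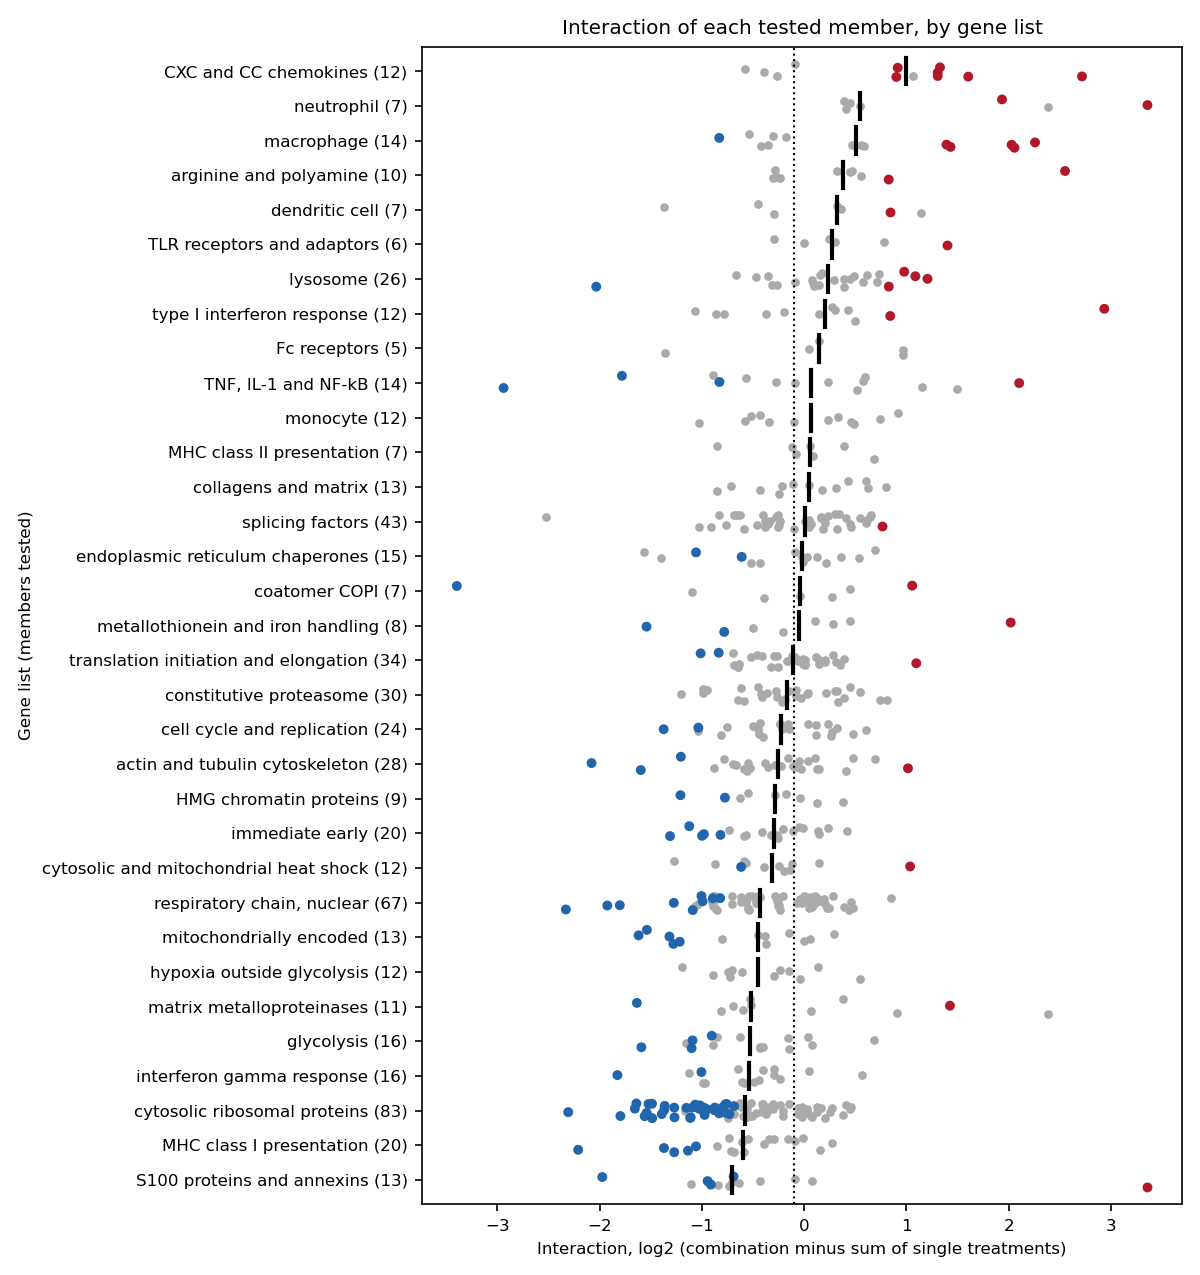
Interaction of each tested member (points) of the 33 lists with at least 5 tested members, in order of their medians (black bars). Red and blue points have an unadjusted p under 0.05 above and below 0, grey points do not, and the dotted line is the median of all tested genes at -0.09; chemokines are at the top (0.99) and S100 proteins and annexins at the bottom (-0.70).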

How the data were processed

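The 12 deposited tables hold whole-number counts per gene symbol from 5′-end tag libraries of polyadenylated RNA read on an Ion S5, 1 table per mouse. The build mm10 and the tools DESeq2, R 3.6.1 and Bowtie2 2.2.5 are named, without roles, per the submitters' processing notes. How the authors made the counts from reads, and whether strand or multiple matches were considered, is not given in the sources used here. Groups came from the sample titles. Genes were filtered with filterByExpr, scaled by trimmed means (TMM), and tested in edgeR 4.0.16 (R 4.3.3) with a quasi-likelihood fit of 1 mean per group over all 12 libraries, Benjamini-Hochberg adjustment and a threshold of 0.05. The prior count was 0.125. Tests were checked on simulated data. DESeq2 1.42.0 and limma 3.58.1 served as alternatives. The totals ran from 133917 to 473273 counts, with a biological coefficient of variation of 22.5%.

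Named genes were up to 15 per direction (none passed, so those with the smallest unadjusted p and a mean of 50 CPM or more in 1 group), up to 3 per list by smallest p, and Hmgn1. The comparison, the gene lists (44, with 630 genes tested) and some named genes were chosen with earlier results of these data known. Gene positions are from GENCODE M21 and promoters from RefSeq (GRCm38.p6), with an entry for 76.8% of tested genes.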

Additional observations from a re-analysis of the deposited data

How the results depend on the processing

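The number of genes off the sum of the single treatments, 0 with edgeR, was 20 with DESeq2, 2 with upper-quartile factors, 37 with no filter on low counts, 36 with Bc1 as a covariate, 4 with the count of genes detected at equal depth as covariate, 8 on the linear CPM scale, 62 without both libraries that stood apart (chosen after seeing the data) and 0 to 6 when 1 library was left out. It stayed 0 with limma voom, RLE factors, total counts only (added after seeing the data), a mean of 50 CPM or more, equal depth and a prior count of 2. With the replicate number as a block it was 16 (5 above, 11 below). Whether the numbers pair the samples was not settled. Of 18 same-number pairs 9 had a correlation of deviations over 0.1, and 7 of 12 libraries correlated best with their own number. The median correlation was 0.0968 for same-number pairs (-0.12 to 0.196) and -0.0414 for other pairs. At an unadjusted p under 0.05, the number above the sum was 136 at equal depth, 370 on the linear scale and 347 without both libraries, and 168 to 278 with 1 library left out. The number below was 229 with DESeq2, 815 with no filter, 184 at equal depth, where fewer genes were tested, 198 on the linear scale, and 245 to 445 with 1 library left out. All 600 genes at that threshold had the same sign in every log-scale alternative in which they were tested, and 585 of 600 on the linear scale. They were picked by this interaction in the same libraries, so a kept sign was largely given by the choice and supports nothing further. Other named genes changed sign in some alternatives, among them Siglech, Pigr, Ctla4 and Ifi30, whose estimates were not near 0 although their 95% intervals included it. On the linear scale the departure was 15.3 CPM for Pigr, 7.91 for Serpinh1, 19.5 for Sparc, 1088 for H2-K1, 727.2 for B2m, 82.5 for Rpl5 and 13.2 for Cd63. Without both libraries that stood apart the interaction was 0.64 for Siglech, -0.0022 for Ifi30, 0.049 for Pigr, 0.092 for Copz1, 0.14 for H2-K1 and 0.10 for B2m. With no filter it was -0.0639 for MT-Co3. With 1 library left out it ran from -2.01 to 0.16 for Siglech, -0.059 to 0.69 for H2-Ab1, -0.028 to 0.48 for Irak1, -0.42 to 0.062 for H2-K1, -0.43 to 0.16 for B2m, -0.22 to 0.82 for MT-Co3 and -0.90 to 1.35 for Ctla4. The causes were not tested. The shallow combination libraries limit what scarce genes can show.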
